A study of Mus musculus with 12 samples.

Results

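The effect of losing Lyl1 while Scl is present was read from 6 of the 12 RNA sequencing libraries of a mouse series, the 3 titled LYL1 KO against the 3 titled Wildtype. Of 49671 genes in the count table, 15399 had enough counts to be tested, and all of them entered the comparison. The other 6 libraries, 3 titled LYL1 SCL DKO (double KO) and 3 titled SCL KO, carry an Scl KO by label, and "without Scl" below means these 6. They give a second, separate measure of Lyl1 loss, the double KO against Scl KO, which shares no library with the first. All 12 libraries are labelled as RNA pooled from embryos at embryonic day 9.5. The labels give neither the alleles nor the number of embryos in a pool, and no label says whether replicates came from separate litters; the p-values therefore cover only how these samples vary.

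Lyl1 and Scl (gene symbol Tal1) belong to 1 subfamily of basic helix-loop-helix factors, active in blood and endothelium. Each pairs with an E protein and binds short DNA motifs called E-boxes, in a complex with Lmo2, Ldb1 and often a GATA factor. Scl is required for the first blood cells of the embryo and Lyl1 can act in its place in some blood stem cells. The yolk sac makes the first, primitive red cells at about this stage, and with them early megakaryocytes, the cells that shed platelets.

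Total counts in the 6 libraries lay between 25675956 and 29212443. Levels are given as TMM-scaled CPM. A gene with no count could still be at up to 0.109 to 0.131 CPM (3 counts, counting error only). The labelled tissue was checked against marker genes. The 20 megakaryocyte and platelet genes summed to 87580 to 100400 CPM in Lyl1 KO and 81040 to 93260 CPM in wild type. The 13 heart muscle genes summed to 0.383 to 1.28 CPM in Lyl1 KO and 0.541 to 5.21 CPM in wild type, and 5 of them had no count in any of the 6 libraries. Red cell genes that define the lineage were also near 0: Klf1 had 2 counts over the 3 Lyl1 KO libraries and 6 over wild type, and Alas2 had 5 in each. The marker levels therefore go against whole embryos as the source. In bulk RNA, fewer cells of a type and less RNA per cell cannot be told apart.

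One library of each group stood apart. On the first principal component of the 6 libraries, which held 40.4% of the variance, Lyl1 KO libraries 1, 2 and 3 scored -34.6, -21.5 and -24.6, wild type 1 and 2 scored 44.8 and 54.3, and wild type 3 scored -18.3, on the side of the Lyl1 KO libraries. Lyl1 KO 3 carried Y-linked transcripts (Ddx3y at 62.0 CPM) and 1.79 CPM of Xist, the RNA of the inactive X chromosome, whereas the other 5 libraries had at least 356 CPM of Xist. The second measure is split by Xist too: it was at 0.402, 0.598 and 740 CPM in double KO 1, 2 and 3 and at 534 to 673 CPM in Scl KO. The part that sex or this split plays in the differences below was not tested, and values without wild type 3 are given where they change a call.

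Lyl1 itself (ENSMUSG00000034041, chromosome 8, 84701457 to 84704715, GRCm38) was at 90.4, 87.4 and 85.5 CPM in Lyl1 KO and 203, 192 and 149 CPM in wild type. The groups did not overlap, and 48.5% of the wild-type level remained. Its log2 fold change of -1.04 ± 0.24 (SE) was not called (adjusted p = 0.286), a call being an adjusted p under 0.05 from edgeR's quasi-likelihood test in 1 fit of all 12 libraries. The 6 libraries alone called it (adjusted p = 0.0182, edgeR). Counts per gene do not show which part of Lyl1 the remaining reads cover. Tal1, the partner factor, was at 619, 542 and 575 CPM in Lyl1 KO and 559, 643 and 513 CPM in wild type, which overlap. It was at 100.4, 100.1 and 77.7 CPM in the double KO and 118, 117 and 93.4 CPM in Scl KO, so Tal1 reads were lower there but not absent.

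Few genes were called. The test called 11 of 15399 genes (0.0714%), 6 higher (0.039%) and 5 lower (0.0325%) in Lyl1 KO. Of the 147 genes tested within 10 Mb of Lyl1, itself included, 9 were called (6.12%). Of the 15252 genes beyond 10 Mb, 2 were called (0.0131%), both higher. The median log2 fold change of all tested genes was -0.0022 and 49.5% were positive. An unadjusted p under 0.05 was reached by 1230 genes (7.99%), 527 higher (3.42%) and 703 lower (4.57%), and by 7.79% of those beyond 10 Mb. DESeq2's Wald test called 104 genes (0.679%), 86 of them beyond 10 Mb (0.567%), and limma-voom called 8 (0.052%).

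The larger of both distant changes was that of Tdpx-ps1 (ENSMUSG00000082431, chromosome 1, 99790429 to 99791025), a processed pseudogene that RefSeq lists as Prdx2-ps1. Tdpx-ps1 stood at 25.3, 28.4 and 28.7 CPM in Lyl1 KO and 4.41, 2.66 and 3.46 CPM in wild type. Every Lyl1 KO library lay far above every wild-type library. It rose by 2.96 ± 0.19 on the log2 scale (edgeR, adjusted p = 2.66e-05). Its call was kept under each of the 15 alternatives run. Prdx2, the peroxiredoxin gene the pseudogene is named for, lies 0.26 Mb from Lyl1 on chromosome 8. It stood at 160, 156 and 158 CPM in Lyl1 KO and 65.9, 63.7 and 67.6 CPM in wild type, a rise of 1.26 ± 0.08 (edgeR, adjusted p = 2.66e-05). How reads of such similar copies were divided between the gene and its pseudogene is uncertain.

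The pair did not move together in the second measure of Lyl1 loss. Tdpx-ps1 was at 8.31, 7.97 and 7.05 CPM in the double KO and 3.09, 3.43 and 3.85 CPM in Scl KO, again higher without Lyl1 (1.17 ± 0.18, edgeR, adjusted p = 0.00107). Prdx2 was at 45.3, 45.5 and 40.1 CPM in the double KO and 63.6, 62.0 and 69.3 CPM in Scl KO, and so fell by 0.57 ± 0.08 on the log2 scale (adjusted p = 0.00067, edgeR). The share of Tdpx-ps1 against Prdx2 was thus not the same in all libraries. Both effects of Lyl1 loss differed between the settings by a test of the difference itself (edgeR interaction, adjusted p = 0.00192 for Tdpx-ps1 and 3.66e-05 for Prdx2).

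Fbxo31 (ENSMUSG00000052934, chromosome 8, 121549440 to 121578806), which encodes a substrate receptor of a ubiquitin ligase, was the other distant call. It lies 36.84 Mb from Lyl1 on the same chromosome. Fbxo31 stood at 56.9, 64.7 and 59.2 CPM in Lyl1 KO and 30.4, 28.7 and 37.2 CPM in wild type, without overlap, and rose by 0.91 ± 0.14 on the log2 scale (edgeR, adjusted p = 0.0316). Its level in the double KO was 53.1, 71.8 and 70.0 CPM and in Scl KO 52.3, 46.9 and 44.8 CPM (0.44 ± 0.13, edgeR, adjusted p = 0.0394), so both measures of Lyl1 loss gave a rise. The call is fragile: limma-voom did not make it (adjusted p = 0.0586). It was also lost when wild type 1, wild type 2 or any Lyl1 KO library was left out (adjusted p from 0.103 to 0.266, edgeR), and without wild type 3 the adjusted p was 0.018.

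**Figure D1:**
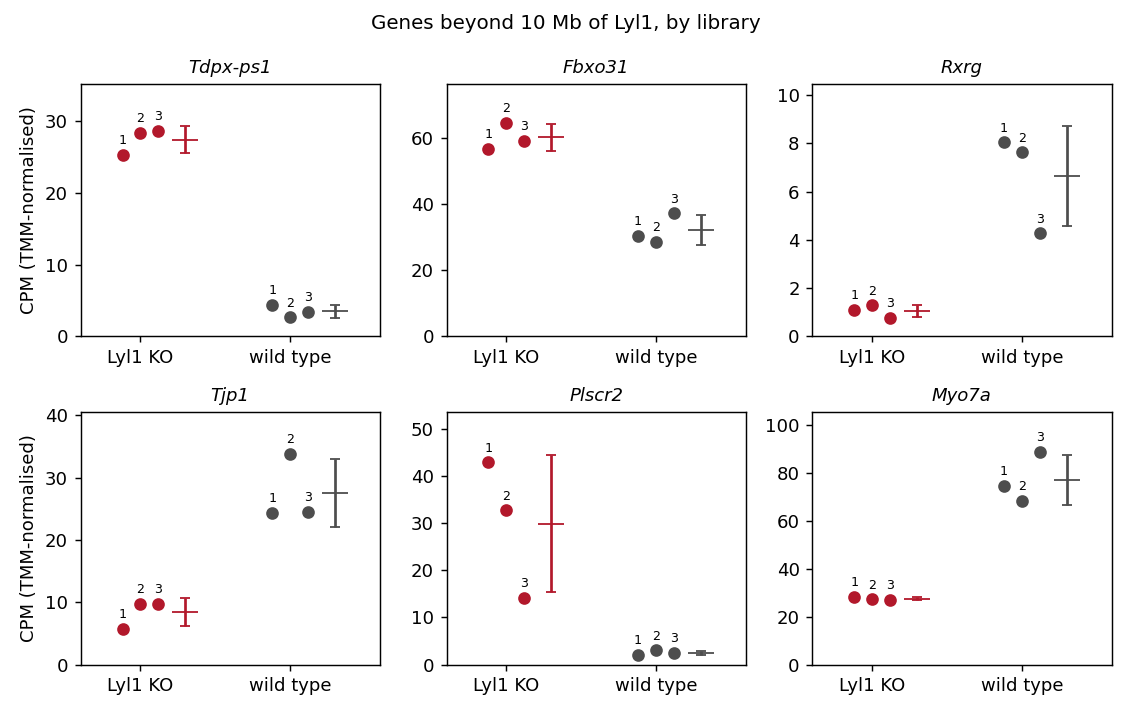
TMM-normalised CPM of 6 genes beyond 10 Mb of Lyl1 in each Lyl1 KO and wild-type library (points, numbered by replicate), with group means and SDs (bar, n = 3) and a linear axis from 0. Tdpx-ps1 at 25.3 to 28.7 CPM and Fbxo31 at 56.9 to 64.7 CPM in Lyl1 KO lay above wild type, and none of the 6 genes overlapped between groups.

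When only the 6 libraries were fitted, edgeR called 29 of 14415 genes (0.201%), 19 of them beyond 10 Mb of Lyl1 (0.133%), 14 higher and 5 lower. Tdpx-ps1 and Fbxo31 were among the 19, and DESeq2 called 9 of them. The other 17 were not called with all 12 libraries and are given as values. Of the 19, 12 had a fold change of the same sign without Scl.

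Among genes lower in Lyl1 KO, Rxrg, the gamma form of the retinoid X receptor, was at 1.09, 1.28 and 0.766 CPM in Lyl1 KO and 8.04, 7.63 and 4.27 CPM in wild type (-2.66 ± 0.47, adjusted p = 0.127 with 12 libraries and 0.0217 with 6, edgeR). It was at 0, 0 and 0.0312 CPM in the double KO and 2.36, 1.5 and 0.63 CPM in Scl KO, where it was called lower (adjusted p = 0.000271, edgeR). Without wild type 3, Rxrg was called lower in Lyl1 KO too (-2.90, adjusted p = 0.0414, edgeR). Tjp1, the tight junction scaffold ZO-1, was at 5.79, 9.72 and 9.74 CPM in Lyl1 KO and 24.3, 33.9 and 24.5 CPM in wild type (-1.71 ± 0.31). For both genes, each Lyl1 KO library was below each wild-type library.

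Myo7a, an unconventional myosin known from inner ear hair cells, was at 28.2, 27.2 and 26.9 CPM in Lyl1 KO and 74.7, 68.3 and 88.7 CPM in wild type (-1.49 ± 0.28, adjusted p = 0.135, edgeR). The second measure did not show this gap: Myo7a was at 20.3, 27.4 and 40.9 CPM in the double KO and 22.0, 49.1 and 32.8 CPM in Scl KO, which overlap.

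Plscr2, of the phospholipid scramblase family, had the largest fitted rise of the 19. It was at 42.9, 32.7 and 14.2 CPM in Lyl1 KO and 2.08, 3.01 and 2.48 CPM in wild type (3.57 ± 0.66, adjusted p = 0.127 with 12 libraries, edgeR). In the double KO it was at 97.6, 79.6 and 15.3 CPM and in Scl KO at 4.37, 4.39 and 1.65 CPM, a called rise of 4.21 ± 0.66 (adjusted p = 0.00115, edgeR). Replicate 3 was the lowest library of Lyl1 KO, the double KO and Scl KO alike.

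Nbea, which encodes neurobeachin, a protein of membrane traffic related to the platelet granule gene Nbeal2, was at 83.7, 119 and 104 CPM in Lyl1 KO and 39.4, 46.9 and 54.6 CPM in wild type (1.12 ± 0.27, adjusted p = 0.316, edgeR). Ackr1, the Duffy chemokine receptor of red cells and venules, was at 46.9, 56.3 and 45.4 CPM in Lyl1 KO and 26.6, 26.9 and 25.5 CPM in wild type (0.91 ± 0.41, adjusted p = 0.603). It was called higher in the double KO than in Scl KO (1.42, adjusted p = 0.0414, edgeR). Thsd4, with thrombospondin repeats, and Tm4sf1, a membrane protein of the tetraspanin-like L6 family, were also higher in every Lyl1 KO library, by 0.72 ± 0.22 and 1.21 ± 0.50.

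A pair of genes with higher values in Lyl1 KO went the other way without Scl. Syt13, of the synaptotagmin family, was at 242, 221 and 211 CPM in Lyl1 KO and 142, 134 and 143 CPM in wild type (0.69 ± 0.32), but fell by 2.59 in the double KO against Scl KO (adjusted p = 0.000415, edgeR). Gsta2, a glutathione transferase, was at 258, 199 and 227 CPM in Lyl1 KO and 139, 135 and 137 CPM in wild type (0.73 ± 0.38), and fell by 1.63 without Scl (adjusted p = 0.012). Gsta2 has close copies, so its reads may be divided unevenly.

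Of the 19 genes, 8 lie on chromosome 7, and 7 of those within 6 Mb of the embryonic globin gene Hbb-y. Globins are the oxygen carriers of red cells: the beta cluster on chromosome 7 holds embryonic genes, used by primitive red cells, and adult ones. Hbb-y (ENSMUSG00000052187) was at 192, 165 and 221 CPM in Lyl1 KO and 36.1, 36.0 and 60.5 CPM in wild type (2.12 ± 0.61, adjusted p = 0.435 with 12 libraries, 0.0254 with 6, edgeR). Hbb-bt, an adult beta globin, was at 788, 587 and 1017 CPM in Lyl1 KO and 234, 238 and 215 CPM in wild type (1.80 ± 0.70, adjusted p = 0.56, edgeR). Hbb-bs, its near-identical adult copy, was at 29.3, 26.0 and 27.1 CPM in Lyl1 KO and 12.6, 11.8 and 12.3 CPM in wild type (1.16 ± 0.59). In all 3 genes each Lyl1 KO library was above each wild-type library.

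The promoters of these 3 genes are shown because their levels differed in the same direction. Each is the 250 bases before the gene's start on the minus strand of chromosome 7 (RefSeq, GRCm38.p6), and capitals mark the GATA site AGATAA, the CACCC box CCACCC and the CCAAT box CCAAT, searched on both strands:
Hbb-y, chr7:103853208-103853457: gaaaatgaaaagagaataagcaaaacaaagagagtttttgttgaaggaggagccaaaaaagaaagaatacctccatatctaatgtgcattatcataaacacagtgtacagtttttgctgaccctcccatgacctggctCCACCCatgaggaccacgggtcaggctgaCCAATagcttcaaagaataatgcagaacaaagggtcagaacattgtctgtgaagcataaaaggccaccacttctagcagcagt
Hbb-bt, chr7:103813924-103814173: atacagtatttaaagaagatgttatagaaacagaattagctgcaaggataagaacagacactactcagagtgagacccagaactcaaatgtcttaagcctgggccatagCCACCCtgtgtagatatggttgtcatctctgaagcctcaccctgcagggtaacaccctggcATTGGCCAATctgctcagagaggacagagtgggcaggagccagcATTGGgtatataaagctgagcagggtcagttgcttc
Hbb-bs, chr7:103827929-103828178: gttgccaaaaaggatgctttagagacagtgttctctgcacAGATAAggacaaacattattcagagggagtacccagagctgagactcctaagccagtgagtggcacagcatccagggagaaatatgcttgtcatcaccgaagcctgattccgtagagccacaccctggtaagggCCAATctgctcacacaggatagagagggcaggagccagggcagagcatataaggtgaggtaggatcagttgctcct
All 3 windows held a CCAAT box, which 33.8% of 32851 promoter windows of this length hold. Hbb-bt had 3 matches to it, 2 of them on opposite strands and adjoining. The letters CCACCC were in Hbb-y and Hbb-bt (28.1% of windows) and AGATAA in Hbb-bs (9.99% of windows). Variant spellings of the CACCC box and GATA site were not searched. A window without a match can therefore still hold such a site. The E-box letters CANNTG, not in capitals, had 0 matches in Hbb-y, 2 in Hbb-bt and 1 in Hbb-bs (66.2% of windows), and CACGTG had 0 in all 3 (6.02%). These matches describe letters in the window and are not shown to be bound.

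Hbb-bh0, annotated as an unprocessed pseudogene of the cluster, followed Hbb-y, at 6.36, 5.20 and 6.30 CPM in Lyl1 KO and 1.12, 1.79 and 1.68 CPM in wild type (1.96 ± 0.56). Hbb-bh1, the main beta-like globin of primitive red cells, did not: it was at 0.284, 0.0753 and 0.213 CPM in Lyl1 KO and 0.291, 0.305 and 0.583 CPM in wild type, near the level of 3 counts. Hba-x, the embryonic alpha globin, had 2 counts in each group. The adult alpha globin Hba-a1, on chromosome 11, overlapped between groups at 304, 240 and 201 CPM in Lyl1 KO and 242, 205 and 152 CPM in wild type (0.31 ± 0.32). Its near-identical copy Hba-a2 did not overlap, at 27.1, 19.3 and 14.7 CPM in Lyl1 KO and 11, 10.6 and 10.4 CPM in wild type (0.93 ± 0.45).

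The difference around the beta cluster was not one of globins alone. Of 134 genes tested within 6 Mb of Hbb-y, 41 (30.6%) did not overlap between groups in either direction, against 15.7% on the rest of chromosome 7 and 15.9% of all tested genes. Within 10 Mb of Lyl1 the share was 32.2%. The window was drawn around Hbb-y with the values known. The 7 genes called there in the 6 libraries alone, with Myo7a near its edge, are among the 41, so its share is a description. Olfr552, an olfactory receptor gene 1.25 Mb from Hbb-y, was at 0.284, 0.151 and 0.17 CPM in Lyl1 KO and 16.2, 17.7 and 15.1 CPM in wild type. Gm35082, a long noncoding RNA gene, had no count in any Lyl1 KO library and was at 4.91, 4.84 and 4.23 CPM in wild type. Trim34b, of the Trim cluster beside the globins, was at 0.567, 0.226 and 0.17 CPM in Lyl1 KO and 2.75, 2.66 and 2.01 CPM in wild type.

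Olfr552, Gm35082 and Trim34b were high or low by library in the other groups. Olfr552 was at 0, 0.232 and 0.156 CPM in the double KO and at 0.0387, 22.1 and 0.595 CPM in Scl KO, so Scl KO 2 stood at the wild-type level and the rest near 0. Gm35082 was at 0, 0 and 0.0312 CPM in the double KO and 0, 3.14 and 0 CPM in Scl KO, high in the same library. Trim34b was at 0.201, 0.232 and 0.0936 CPM in the double KO. In Scl KO it was at 0.309, 2.46 and 0.105 CPM, again high in Scl KO 2. Hbb-y, at 74.8, 66.3 and 9.64 CPM in the double KO and 130, 34.7 and 77.1 CPM in Scl KO, was lowest of the Scl KO libraries in that one, and its groups overlapped. What sets Scl KO 2 apart in this region was not tested.

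**Figure D2:**
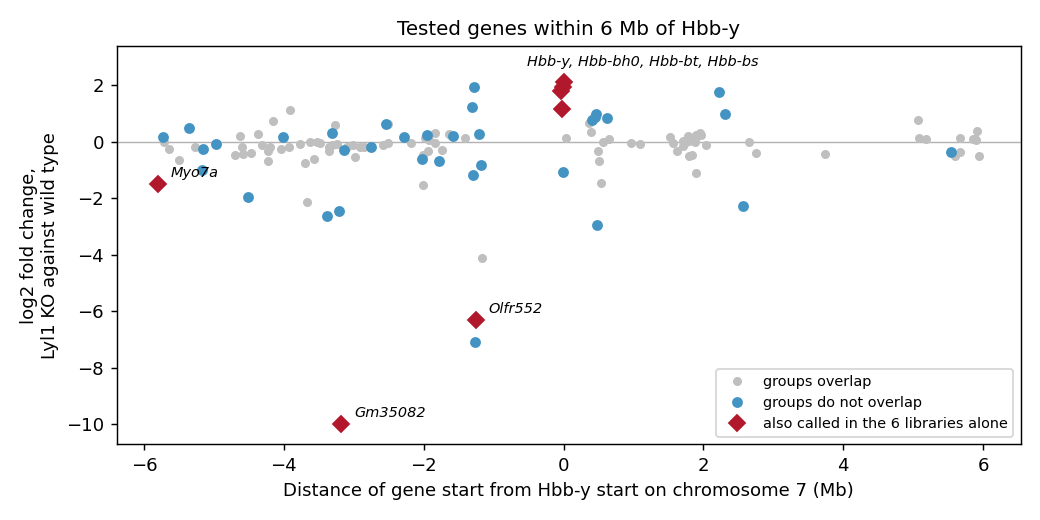
Fitted log2 fold change in Lyl1 KO against wild type (vertical axis) of the 134 tested genes by the distance of their start from that of Hbb-y on chromosome 7 (horizontal axis, Mb). The diamonds at 0 Mb are Hbb-y, Hbb-bt, Hbb-bs and the pseudogene Hbb-bh0. Genes whose groups do not overlap (41, coloured) lie along the whole stretch and in both directions; the position of Gm35082, with no count in Lyl1 KO, depends on the count added by the fit and is no measure of its fold.

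Other red cell genes showed smaller differences. Of 20 tested genes of the red cell surface and membrane skeleton, edgeR called 0 (0.0714% of all genes), limma-voom 0 and DESeq2 1, and 3 had an unadjusted p under 0.05. Of the same 20, 5 were higher in Lyl1 KO without overlap (7.7% of all genes) and 0 lower (8.18%), and the median log2 fold change was 0.11. Tmcc2 was at 170, 154 and 146 CPM in Lyl1 KO and 117, 124 and 94.3 CPM in wild type (0.49 ± 0.14). Every Lyl1 KO library was above every wild-type library. Its log2 fold change without Scl was -1.66, and the interaction was called (edgeR, adjusted p = 0.000376).

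Heme synthesis genes had a median of 0.07 over 8 tested members, 0 called by edgeR, limma-voom or DESeq2 and 1 with an unadjusted p under 0.05. Of the 8, 1 was higher without overlap (7.7% of all genes). This was Urod, at 59.9, 54.3 and 50.7 CPM in Lyl1 KO and 45.8, 47.8 and 47.9 CPM in wild type. The 9 tested red cell transcription factors likewise had 0 called (0.0714% of all genes) and 5 positive fold changes (49.5%). Only 1 member was without overlap, and it was lower (8.18% of all genes). That member was E2f2, a cell cycle factor of late red cell divisions, at 7.01, 6.93 and 7.10 CPM in Lyl1 KO and 10.8, 8.37 and 10.6 CPM in wild type (-0.50 ± 0.17, adjusted p = 0.509, edgeR).

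Lyl1 and Scl act in a complex with other factors. Of its 18 tested factors and inhibitors, 0 were called by edgeR, limma-voom or DESeq2, 1 had an unadjusted p under 0.05 and 8 had a positive fold change. Tcf4, an E protein that can pair with either factor, was at 38.1, 39.2 and 35.6 CPM in Lyl1 KO and 45.9, 51.7 and 41.4 CPM in wild type (-0.30 ± 0.10), below it in every library. Cbfa2t3, the corepressor Eto2 of the complex, was at 193, 179 and 183 CPM in Lyl1 KO and 169, 167 and 151 CPM in wild type (0.19 ± 0.20). Gata1, Gata2 and Lmo2 overlapped, with log2 fold changes of 0.11, 0.04 and -0.05.

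Megakaryocyte and platelet genes had 0 of 20 members called by edgeR, limma-voom or DESeq2, 1 with an unadjusted p under 0.05 (7.99% of all genes), a median of 0.09 and 4 higher without overlap (7.7%). Selp, the P-selectin of platelet granules, was at 1152, 1202 and 1227 CPM in Lyl1 KO and 865, 1015 and 1066 CPM in wild type (0.28 ± 0.12, adjusted p = 0.573, edgeR). Gp1bb, of the von Willebrand factor receptor, was at 966, 876 and 879 CPM in Lyl1 KO and 646, 728 and 774 CPM in wild type (0.34 ± 0.20). Itga2b, the alpha subunit of the fibrinogen receptor, was at 9218, 7937 and 8055 CPM in Lyl1 KO and 7403, 7908 and 7367 CPM in wild type (0.15 ± 0.18). Ppbp, a platelet chemokine, and Thbs1, thrombospondin of platelet granules, had log2 fold changes of 0.12 and 0.06. Without Scl the log2 fold changes of Gp1bb, Ppbp and Thbs1 in the double KO against Scl KO were -1.66, -1.66 and -3.83, each with a called interaction (adjusted p = 0.00199, 0.0378 and 8.52e-05, edgeR).

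Many vessel genes had lower values in Lyl1 KO than in wild type 1 and 2, but not than in wild type 3. Of 24 tested endothelial genes, 0 were called by edgeR, limma-voom or DESeq2, 10 had an unadjusted p under 0.05 and were lower (4.57% of all genes) and 1 was higher (3.42%), and the median log2 fold change was -0.76. Only 2 were lower without overlap (8.18% of all genes) and 1 higher (7.7%). Robo4, an endothelial guidance receptor, was at 0.122, 0.113 and 0.17 CPM in Lyl1 KO and 1.33, 2.53 and 0.109 CPM in wild type. Cdh5, the cadherin of endothelial junctions, was at 0.486, 2.83 and 1.74 CPM in Lyl1 KO and 14.3, 19.7 and 1.46 CPM in wild type. Mmrn2, of the vessel matrix, was at 0.284, 0.565 and 0.213 CPM in Lyl1 KO and 1.87, 3.4 and 0.401 CPM in wild type. In each, wild type 3 lay at or near the Lyl1 KO values.

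These low genes do not stand for all endothelial members. Members also known from megakaryocytes overlapped at far higher levels: Pecam1 was at 958, 762 and 759 CPM in Lyl1 KO and 781, 796 and 625 CPM in wild type (0.17 ± 0.19), and Kdr had a log2 fold change of 0.13. Flt1, a VEGF receptor, was higher in Lyl1 KO at 241, 259 and 299 CPM than in wild type at 105, 140 and 221 CPM (0.78 ± 0.29, adjusted p = 0.551, edgeR). The endothelial sum was 1742 ± 113 CPM in Lyl1 KO and 1549 ± 98.3 CPM in wild type (SD, n = 3), opposite in direction to the median. For 19 of the 24 genes, wild type 3 was nearer to the Lyl1 KO mean than to the mean of wild type 1 and 2.

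Venous and lymphatic genes had a median of -1.53 over 8 tested, with 3 lower without overlap (8.18% of all genes). By edgeR and limma-voom 0 of the 8 were called, DESeq2 called 1, and 5 had an unadjusted p under 0.05 and were lower (4.57% of all genes). Aplnr, the apelin receptor of early vessels and mesoderm, was at 0.0405, 0.0753 and 0 CPM in Lyl1 KO and 1.87, 4.01 and 0.365 CPM in wild type (adjusted p = 0.202, edgeR; 0.00114 by DESeq2). Nr2f2, the factor that sets venous identity, was at 0.162, 0.151 and 0.0425 CPM in Lyl1 KO and 0.874, 1.52 and 0.292 CPM in wild type. Arterial genes had a median of -1.20 over 11 tested, with 1 lower without overlap, near the share of all genes (8.18%). Of the 11, 0 were called by edgeR, limma-voom or DESeq2, and 2 had an unadjusted p under 0.05 and were lower (4.57% of all genes). Among them Dll4, the Notch ligand of arteries, was at 0.405, 0.264 and 0.0851 CPM in Lyl1 KO and 1.54, 2.66 and 0.109 CPM in wild type. Wild type 3 was again the low one.

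Fibroblast and smooth muscle genes had lower values as well, and here wild type 3 stayed above Lyl1 KO for more genes. Of 11 tested, 5 were lower without overlap (8.18% of all genes), none was called by edgeR (3 had an unadjusted p under 0.05 and were lower, 4.57% of all genes, DESeq2 called 2, limma-voom 0), and the median was -1.58. Pdgfra, the receptor of mesenchymal cells, was at 0.122, 0.678 and 0.128 CPM in Lyl1 KO and 1.17, 3.79 and 2.66 CPM in wild type (-2.99 ± 0.74, adjusted p = 0.322, edgeR; 0.00601 by DESeq2). Pdgfrb, the pericyte receptor, was at 0.527, 3.01 and 2.43 CPM in Lyl1 KO and 12.7, 17.1 and 4.45 CPM in wild type. Col3a1, a fibrillar collagen, was at 1.18, 10.4 and 9.36 CPM in Lyl1 KO and 63.8, 66.5 and 16.3 CPM in wild type. Summed over the list, Lyl1 KO libraries were at 15.6, 92.3 and 28.6 CPM and wild type at 161, 164 and 153 CPM. Wild type 3 was still nearer to the Lyl1 KO mean than to that of wild type 1 and 2 for 7 of 11 genes.

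Without wild type 3, edgeR called 41 genes, 32 of them beyond 10 Mb of Lyl1 (15 higher and 17 lower), in a fit where wild type has 2 libraries. Robo4 (-3.81, adjusted p = 0.0474), Aplnr (adjusted p = 0.0413) and Col4a2 (-3.25, 0.0234) were then called lower. Notch3, a receptor of vessel smooth muscle, was called too (-2.81, 0.0414), though it lies outside the lists and was singled out after its values were seen. The endothelial median was -0.99 and the venous median -1.76 without that library. Other settings gave smaller medians. With only genes of at least 1 CPM in 3 libraries, the endothelial, arterial and venous medians were -0.29, -0.26 and -0.64. In the fit of the 6 libraries alone they were -0.21, -0.24 and -0.80. Of the 105 candidates for the largest falls, wild type 3 was nearer to the Lyl1 KO mean in 54, and of the 86 for the largest rises in 17.

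**Figure D3:**
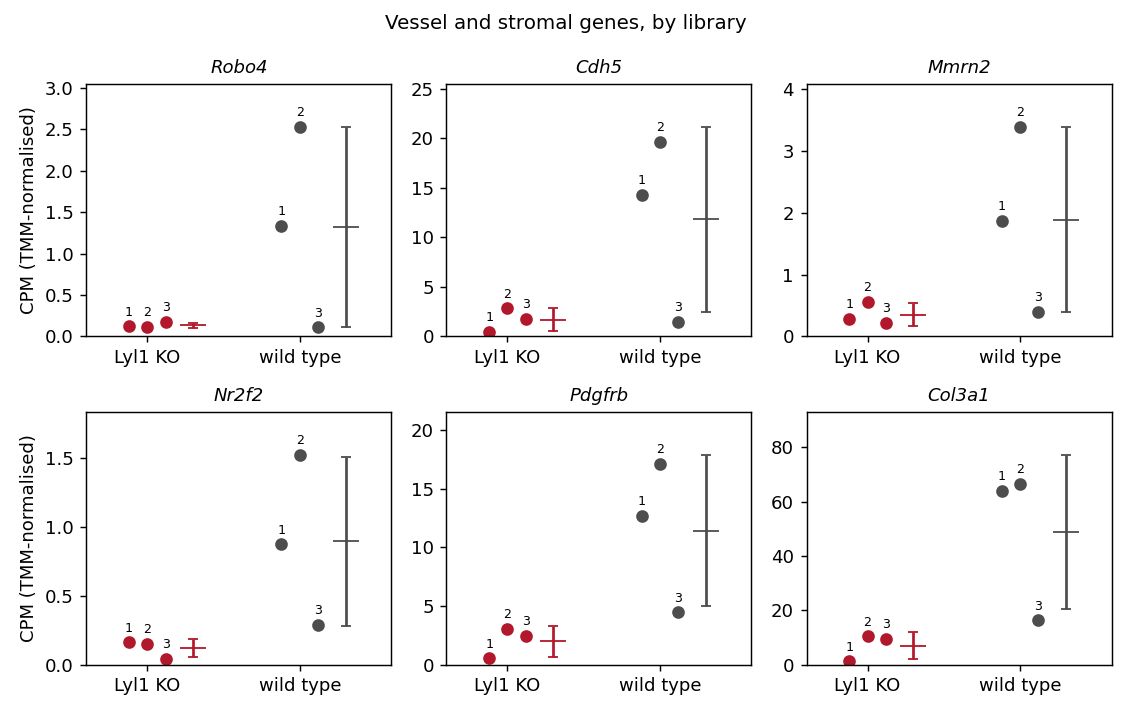
TMM-normalised CPM of 4 vessel genes (Robo4, Cdh5, Mmrn2 and Nr2f2) and 2 stromal genes (Pdgfrb and Col3a1) in each Lyl1 KO and wild-type library (points, numbered by replicate), with group means and SDs (bar, n = 3) and a linear axis from 0. Wild type 3 lies near the Lyl1 KO libraries, as with Cdh5 at 1.46 CPM against 14.3 and 19.7 CPM in the other wild-type libraries.

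Blood stem and progenitor genes had a median of -0.07, with 0 of 20 members called by edgeR, limma-voom or DESeq2. Of the 20, 2 had an unadjusted p under 0.05 and were lower (4.57% of all genes), and 3 were lower without overlap (8.18%). Hoxa9, a homeobox factor of blood stem cells, was at 0.203, 0.151 and 0.128 CPM in Lyl1 KO and 0.833, 0.392 and 0.729 CPM in wild type (-1.99 ± 0.46, adjusted p = 0.286, edgeR). Meis1, its partner factor, was at 53.7, 53.1 and 54.6 CPM in Lyl1 KO and 56.0, 73.9 and 68.6 CPM in wild type (-0.30 ± 0.13). Kit, the stem cell factor receptor, overlapped at 4.98, 4.11 and 3.62 CPM in Lyl1 KO and 8.45, 6.41 and 4.08 CPM in wild type.

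Markers of other blood cells varied between libraries, and with all 12 libraries edgeR and limma-voom called none of them. Macrophage and monocyte genes summed to 8885 to 13960 CPM in Lyl1 KO and 6890 to 13130 CPM in wild type, with a median of 0.08 over 20 members, 3 with an unadjusted p under 0.05 and 1 called by DESeq2. That was Ccr2, the chemokine receptor of monocytes, at 13.3, 13.9 and 10.4 CPM in Lyl1 KO and 44.8, 32.9 and 17.4 CPM in wild type (-1.34 ± 0.33, adjusted p = 0.319, edgeR; 0.0109 by DESeq2). Without wild type 3, edgeR called Ccr2 lower (-1.64, adjusted p = 0.0414). B, T and NK cell genes had a median of -1.58 over 9 tested, 4 with an unadjusted p under 0.05 and a lower value (4.57% of all genes). DESeq2 called 1, Rag1, the antigen receptor recombinase. It was at 0, 0.188 and 0.17 CPM in Lyl1 KO and 2.71, 1.96 and 0.51 CPM in wild type. Of the 9 lymphoid genes, 1 was lower without overlap (8.18% of all genes). For 8 of them, wild type 3 was nearer to the Lyl1 KO mean than to that of wild type 1 and 2. The list summed to 155, 82.7 and 46.4 CPM in wild type and 49.9 to 98.9 CPM in Lyl1 KO. Mast cell and basophil genes had a median of -0.78 over 9 tested, and their sum of 160 CPM in wild type 3 stood against 25.5 to 54.3 CPM in the other 5 libraries. Neutrophil genes had a median of -0.08 over 12 tested and none without overlap. The part of these cells in the differences above was not tested.

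Among stress programmes, p53 targets had mostly positive fold changes. Of 20 tested, 0 were called by edgeR, limma-voom or DESeq2, 4 had an unadjusted p under 0.05, 18 had a positive fold change (49.5% of all genes), 4 were higher without overlap (7.7%) and the median was 0.23. Bbc3, the death gene Puma, was at 87.8, 74.9 and 82.5 CPM in Lyl1 KO and 57.1, 54.6 and 71.8 CPM in wild type (0.42 ± 0.11, adjusted p = 0.435, edgeR). Gdf15, a stress cytokine, was at 24.0, 27.6 and 21.5 CPM in Lyl1 KO and 17.6, 9.98 and 15.3 CPM in wild type. The p53 median was 0.45 without wild type 3, whose list sum was 139% of the mean of wild type 1 and 2.

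Immediate early genes, which cells switch on within minutes of a stimulus, had a median of 0.21 over 18 tested. Of the 18, 2 were higher without overlap (7.7% of all genes). By edgeR, limma-voom and DESeq2 0 were called, and 3 had an unadjusted p under 0.05 and were higher (3.42% of all genes). Junb was at 274, 311 and 291 CPM in Lyl1 KO and 192, 151 and 213 CPM in wild type (0.66 ± 0.19), and it lies 0.27 Mb from Lyl1. Jund, on the same chromosome, was at 79.8, 85.8 and 85.2 CPM in Lyl1 KO and 56.2, 48.2 and 76.6 CPM in wild type (0.47 ± 0.17). Jun overlapped because of wild type 3, at 336, 354 and 377 CPM in Lyl1 KO and 198, 202 and 366 CPM in wild type, and was called without it (0.82, adjusted p = 0.0413, edgeR).

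Peroxiredoxins and antioxidant enzymes were the list with a call, Prdx2, one of 2 members within 10 Mb of Lyl1. Of 22 members, 21 had a positive fold change (49.5% of all genes) and 8 were higher without overlap (7.7%), with a median of 0.17. An unadjusted p under 0.05 was reached by 3, all higher (3.42% of all genes). Gclc, which makes the first step of glutathione synthesis, was at 287, 227 and 299 CPM in Lyl1 KO and 197, 194 and 201 CPM in wild type (0.46 ± 0.12, adjusted p = 0.435, edgeR). Prdx3, the mitochondrial peroxiredoxin, was at 154, 144 and 162 CPM in Lyl1 KO and 130, 137 and 130 CPM in wild type (0.22 ± 0.08). Summed over the list, Lyl1 KO stood at 6951 ± 529 CPM and wild type at 6021 ± 52.6 CPM (SD, n = 3).

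Cholesterol synthesis genes had mostly negative fold changes, 19 of 22, with 5 lower without overlap (8.18% of all genes) and a median of -0.14. By edgeR, limma-voom and DESeq2 0 were called, and 3 had an unadjusted p under 0.05. Hmgcs1, an early enzyme of the pathway, was at 147, 153 and 161 CPM in Lyl1 KO and 227, 254 and 205 CPM in wild type (-0.58 ± 0.15, adjusted p = 0.414, edgeR). Cell cycle genes (median -0.03 over 22), glycolysis and hypoxia genes (-0.03 over 22), stress response genes (0.06 over 18), interferon-induced genes (-0.14 over 20) and flow-responsive genes (-0.12 over 9) had no called member (edgeR; members with an unadjusted p under 0.05 numbered 0, 1, 2, 3 and 2; limma-voom and DESeq2 called 0).

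**Figure D4:**
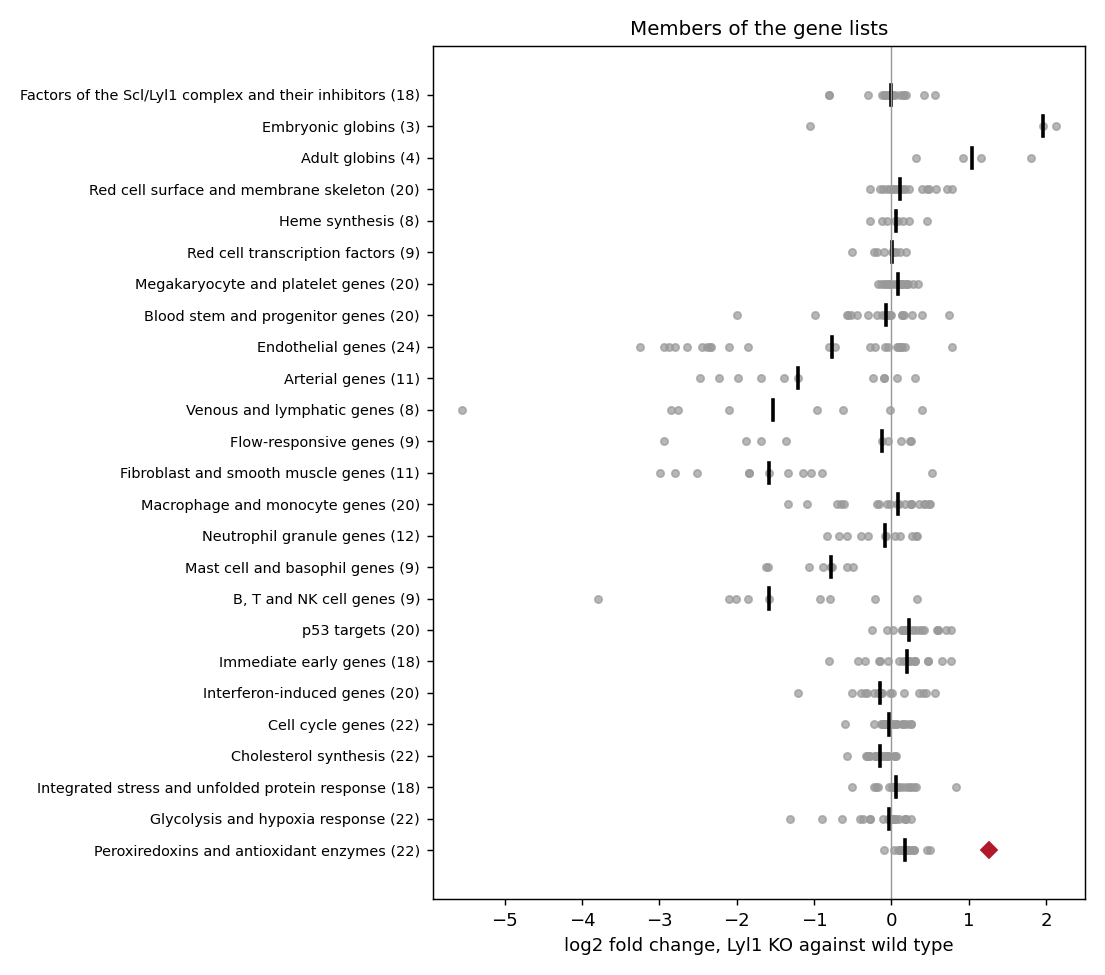
Fitted log2 fold change in Lyl1 KO against wild type of the tested members of 25 gene lists (points; number tested in brackets), with the median of each list (black bar) and called genes (diamond). The medians of the endothelial, arterial, venous, stromal and lymphoid lists lie between -0.76 and -1.58, and that of flow-responsive genes at -0.12. Those of globins lie at 1.96 (with the pseudogene Hbb-bh0) and 1.05, and Prdx2 at 1.26 is the only called member.

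The largest fitted changes beyond 10 Mb of Lyl1, among 191 genes with an unadjusted p under 0.01, a mean of at least 1 CPM and no overlap, included 5 antibody genes among the 10 largest rises and 3 collagens among the 10 largest falls. Of those 191, 97 had a fold change of the same sign without Scl. Ptn, the growth factor pleiotrophin, was at 3.69, 2.75 and 3.57 CPM in Lyl1 KO and 0.291, 0.697 and 1.17 CPM in wild type (2.20 ± 0.51, adjusted p = 0.286, edgeR; 0.00543 by DESeq2). Serinc2, a serine incorporator, was at 3.57, 2.67 and 3.66 CPM in Lyl1 KO and 0.666, 0.697 and 1.71 CPM in wild type (1.67 ± 0.51), but without Scl it was at 0, 0 and 0.0312 CPM in the double KO and 0.89, 0.464 and 0.245 CPM in Scl KO, and was called lower (adjusted p = 0.00223, edgeR). Arhgef28, a guanine nucleotide exchange factor, was at 4.98, 5.84 and 6.72 CPM in Lyl1 KO and 1.67, 1.70 and 2.95 CPM in wild type (1.47 ± 0.46).

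Among the lower ones, Cecr2, a chromatin remodelling subunit, was at 0.203, 0 and 0.213 CPM in Lyl1 KO and 2.79, 3.18 and 1.28 CPM in wild type (-4.11 ± 1.20, adjusted p = 0.438, edgeR; 0.0193 by DESeq2). Synpo, an actin-binding protein, was at 0.122, 0.565 and 0.17 CPM in Lyl1 KO and 2.17, 2.79 and 1.28 CPM in wild type (-2.81 ± 0.56, adjusted p = 0.177, edgeR). Without Scl, Synpo was higher in the double KO than in Scl KO (2.25, adjusted p = 0.00714). The basement membrane collagen Col4a2 was at 1.99, 5.88 and 5.62 CPM in Lyl1 KO and 36.7, 48.2 and 6.60 CPM in wild type, and Col6a2 at 0.567, 6.37 and 5.27 CPM in Lyl1 KO and 30.4, 39.7 and 6.82 CPM in wild type. In both, wild type 3 lay just above the highest Lyl1 KO library.

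Nr1d1, one of the 19 genes called in the 6 libraries alone, encodes the nuclear receptor Rev-erb alpha, a repressor within the circadian clock. The clock runs on Clock and Arntl, which switch on Per, Cry, Nr1d and Dbp genes through E-boxes. Nr1d1 was at 58.3, 47.2 and 50.6 CPM in Lyl1 KO and 22.0, 21.9 and 30.5 CPM in wild type (1.07 ± 0.25, adjusted p = 0.286 with 12 libraries and 0.0462 with 6, edgeR). Other clock genes were looked at after this value was seen, so their counts are a description. Of 18 tested, 0 were called by edgeR with 12 libraries or by limma-voom, and DESeq2 called 2. An unadjusted p under 0.05 was reached by 6, all higher (3.42% of all genes), and 8 were higher without overlap (7.7%). Nr1d1 itself is in each of these counts but the first.

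Nr1d2, the second Rev-erb gene, was at 41.2, 32.8 and 40.5 CPM in Lyl1 KO and 18.7, 16.9 and 26.7 CPM in wild type (0.88 ± 0.19). Dbp, an output factor of the clock, was at 13.9, 14.5 and 16 CPM in Lyl1 KO and 7.16, 7.02 and 8.82 CPM in wild type (0.95 ± 0.26). Cry2, a clock repressor, was at 29.4, 27.1 and 30.8 CPM in Lyl1 KO and 13.1, 17.1 and 23.6 CPM in wild type (0.70 ± 0.18). The highest wild-type library for each of the 3 was wild type 3, and Nr1d2 and Cry2 were called without it (adjusted p = 0.0413 and 0.0417, edgeR). Per1, Per2, Per3, Cry1 and Clock overlapped, with log2 fold changes from -0.11 to 0.03.

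In the libraries without Scl, Nr1d1 and Nr1d2 went the other way. Nr1d1 was at 17.3, 17.4 and 8.27 CPM in the double KO and 35.5, 25.5 and 29.2 CPM in Scl KO, a fall of 1.07 ± 0.25 on the log2 scale (adjusted p = 0.0114, edgeR), and the interaction was called (adjusted p = 0.0042). Nr1d2 fell by 0.82 (adjusted p = 0.00973) and Tef, another output factor, by 0.61 (adjusted p = 0.00723, edgeR). The hour at which the embryos were collected is not given in the sources used here, and its part in these values was not tested.

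**Figure D5:**
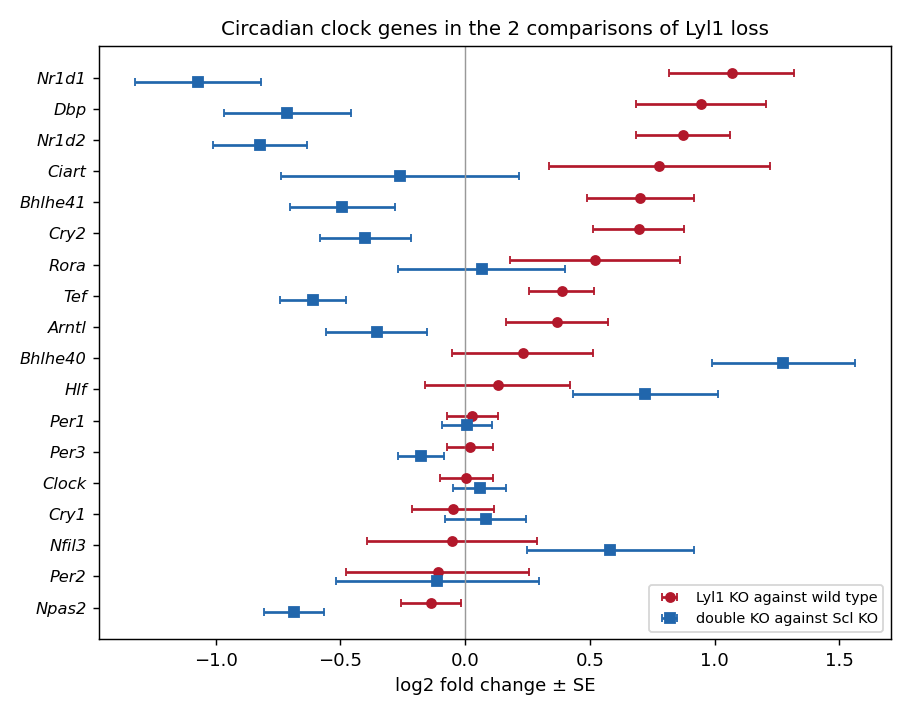
Fitted log2 fold change with its SE of 18 clock genes, in Lyl1 KO against wild type (circles) and in double KO against Scl KO (squares). Nr1d1 stood at 1.07 and -1.07, and Dbp, Nr1d2, Bhlhe41, Cry2, Tef and Arntl were likewise on opposite sides of 0.

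The second measure of Lyl1 loss called far more genes: edgeR called 2947 of 15399 genes (19.1%) in the double KO against Scl KO and 1444 (9.38%) for the interaction. Of the 19 genes called beyond 10 Mb in the 6 libraries alone, 6 were called there with the same sign and 3 with the opposite one. A called interaction was found for 6 of the 19, but these genes were picked by Lyl1 KO against wild type, which the interaction subtracts. Tdpx-ps1, Fbxo31, Rxrg, Plscr2, Olfr552 and Ackr1 were the 6 with the same sign. For Olfr552 the double KO and Scl KO overlapped, and Scl KO 2 alone was high. Nr1d1, Syt13 and Gsta2 were the 3 with the opposite sign.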

How the data were processed

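RNA was sequenced from 12 libraries labelled as pooled embryos of day 9.5, 3 in each of 4 genotype groups. The authors deposited unnormalized gene counts for all libraries in a single table. The submitters' processing notes name STAR 2.5.2b, Subread 1.5.2 (featureCounts) and the build GRCm38. Per the file headers, counting used the reverse strand, Ensembl release 87 models and no reads mapping to several places, so reads of near-identical genes can be lost or divided unevenly. The sources used here do not give trimming or read length. Symbols matched by Ensembl identifier for 49326 genes.

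The main test was edgeR 4.0.16 (R 4.3.3): filterByExpr by group (minimum count 10, minimum total 15), TMM scaling, and a robust quasi-likelihood F-test on all 12 libraries together, with no covariate beside group. Adjusted p-values are Benjamini-Hochberg over all genes tested, from this test unless another is named, and a gene under 0.05 is called. The contrasts were Lyl1 KO against wild type, double KO against Scl KO, and the second minus the first (interaction). The common biological coefficient of variation was 0.234.

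Alternatives were DESeq2 size factors, globin genes removed, no filter or a stricter one (1 CPM in 3 libraries), limma-voom (limma 3.58.1), the Wald test of DESeq2 1.42.0, no robust estimation, a replicate block, only the libraries compared, and each library left out. No set test was run: gene lists are described by counts and medians. Members, lists, and tests were chosen with earlier results of these data known, and the clock, immunoglobulin, plasma cell and collagen groups after their values were seen. The window of 6 Mb around Hbb-y was also drawn with values known. Named genes are Lyl1 and Tal1, every gene beyond 10 Mb of Lyl1 called with 12 or with 6 libraries, and the 10 largest rises and 10 largest falls there (unadjusted p under 0.01, mean of at least 1 CPM, no overlap, no predicted gene or pseudogene). With them are up to 3 members per list by p and a set fixed by name (globins, blood and vessel genes, Prdx2, Xist); any other gene named was chosen after its values were seen. Results for some named genes are not reported here.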

Additional observations from a re-analysis of the deposited data

Results flagged for a closer look

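For 28 of the genes chosen by the naming rule, the effect of Lyl1 loss differed between libraries without Scl (double KO against Scl KO) and libraries with Scl (Lyl1 KO against wild type), by edgeR's test of that difference at an adjusted p under 0.05. The value given is the log2 effect without Scl minus the log2 effect with Scl. Over all tested genes this difference was called for 9.38%. The naming rule picked many of these genes by their values in Lyl1 KO against wild type, which the difference subtracts. The 28 therefore cannot be set against that share. Genes named after their values were seen, such as Col18a1 and the clock genes other than Nr1d1, are not counted among the 28.

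Most of these genes had the more negative effect without Scl. Among red cell genes the difference was -6.12 for Hba-a1, -4.94 for Hba-a2, -2.90 for the pseudogene Hbb-bh0, -2.14 for Tmcc2 and -0.64 for Urod. The transcription factor Gata1 differed by -1.47. Among platelet genes it was -3.89 for Thbs1, -2.01 for Gp1bb, -1.78 for Ppbp and -0.94 for Pf4. Among genes described for Lyl1 KO it was -1.80 for Tdpx-ps1, -1.84 for Prdx2, -3.94 for Rxrg, -2.14 for Nr1d1, -3.29 for Syt13, -2.36 for Gsta2, -6.78 for Serinc2 and -2.70 for Ptn. Rxrg and Serinc2 had 1 count over the 3 double KO libraries, so their values depend on the count added by the fit. The antioxidant gene Gclc differed by -0.92, the p53 target Bbc3 by -0.56 and the immediate early gene Junb by -1.23. Tubb3, a neuronal tubulin, differed by -4.09 and Afp, the fetal albumin-like protein, by -2.03.

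A smaller set had the more positive effect without Scl. The difference was 5.06 for Synpo, 4.48 for Ryr2, the calcium release channel of heart muscle, 2.5 for Hoxa9, 1.26 for E2f2 and 0.61 for Tcf4. Ryr2 was at or under 0.328 CPM in all 6 libraries with Scl.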

How the results depend on the processing

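The 11 genes called for Lyl1 KO against wild type became 5 to 41 when 1 of the 6 libraries was left out (5 without Lyl1 KO 1, 6 without Lyl1 KO 2, 7 without wild type 1, 6 without wild type 2 and 41 without wild type 3), and the 2 called beyond 10 Mb of Lyl1 became 1 to 32. The 2947 genes called for the double KO against Scl KO became 1645 to 3222 (1645 and 1692 when Scl KO 1 or Scl KO 2 was left out), and the 1444 called for the interaction 671 to 1925 (671 to 936 without 1 Lyl1 KO library, 888 without double KO 2, 684 and 740 when Scl KO 1 or Scl KO 2 was left out). DESeq2's Wald test called 104 for Lyl1 KO against wild type and 86 beyond 10 Mb; the 6 libraries alone gave 29 and 19. Beyond 10 Mb, no filter on low counts gave 4 and limma-voom 1. Only the libraries compared gave 1742 for the double KO against Scl KO. All 11 calls were among those of DESeq2, of the 6 libraries alone and of the fit without wild type 3. Same-numbered Lyl1 KO and wild-type libraries deviated together with r = 0.119, -0.015 and 0.077, and Lyl1 KO 2 correlated best with wild type 1 (0.07), so the numbers were not taken to pair them. With a replicate block 16 genes were called, 6 beyond 10 Mb (Tdpx-ps1, Fbxo31, Rxrg, Aplnr, Kcna4 and Tjp1), 3722 for the double KO against Scl KO and 2100 for the interaction. Of 1847 values of 125 named genes under the alternatives, 1778 kept their direction and side of the threshold, 50 passed it only under the alternative, 6 lost it (all Fbxo31) and 13, of 7 uncalled genes, changed direction when 1 library was left out. Their log2 fold changes then ranged from -1.40 to 0.32 for Cryab, -0.12 to 0.15 for Gata2, -0.0598 to 0.129 for Tal1, -0.43 to 0.66 for Amn, -1.54 to 0.17 for Prss34, -0.126 to 0.0312 for Lmo2 and -0.0013 to 0.139 for Thbs1. Depth limits genes near 0.109 to 0.131 CPM, such as Robo4 and Hbb-bh1, whose levels rest on a few counts in some libraries. The cause of these shifts was not tested.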

Other observations

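Immunoglobulin transcripts, the antibody genes of B cells and plasma cells, were higher in 2 of the Lyl1 KO libraries. This group was chosen after values were seen, because 5 of the 10 largest fitted rises were antibody genes. Of 77 tested, edgeR and limma-voom called 0 and DESeq2 called 4. An unadjusted p under 0.05 with a higher value was reached by 39 (3.42% of all genes), and 13 were higher without overlap (7.7%). The 77 summed to 1048, 1322 and 71.3 CPM in Lyl1 KO 1, 2 and 3, against 174, 85.8 and 64.8 CPM in wild type 1, 2 and 3. Lyl1 KO 3 lay within the range of wild type. Of the 77, 75 had a positive fold change (49.5% of all genes), and 7 had no count in 1 of the groups. Only antibody genes with enough counts to be tested are in this group. A gene can pass that filter through the libraries where it is high, so these counts and sums are a description. Igha, the constant region of the mucosal antibody IgA, was at 94.2, 55.7 and 2.51 CPM in Lyl1 KO and 1.67, 1.61 and 1.09 CPM in wild type. Ighg2b, of an IgG class, was at 40.4, 34.3 and 3.36 CPM in Lyl1 KO and 0.916, 0.131 and 0.656 CPM in wild type. Jchain, which joins IgA and IgM units, was at 51.7, 67.5 and 3.45 CPM in Lyl1 KO and 3.79, 1.09 and 1.64 CPM in wild type.

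Other genes of these cells did not follow. Of 10 tested plasma cell genes, edgeR, limma-voom and DESeq2 called 0, 3 had an unadjusted p under 0.05 (1 higher and 2 lower) and 0 were free of overlap. Sdc1, a surface protein of plasma cells, was at 9.44, 13.8 and 8 CPM in Lyl1 KO and 29.2, 19.5 and 10.1 CPM in wild type. Ighd, the antibody class of resting B cells, was at 0.729, 0.565 and 0.638 CPM in Lyl1 KO and 5.16, 2.75 and 0.839 CPM in wild type, the 1 antibody gene lower without overlap. Where these transcripts came from was not tested.

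Collagen genes, a second group chosen after values were seen, had 27 tested of 44 and a median of -1.52. Of the 27, 24 had a negative fold change (49.5% of all genes were positive) and 11 were lower in Lyl1 KO without overlap (8.18%). EdgeR and limma-voom called 0, DESeq2 called 3, and 9 had an unadjusted p under 0.05 and were lower (4.57% of all genes). For 19 of the 27, wild type 3 was nearer to the Lyl1 KO mean than to the mean of wild type 1 and 2. Col18a1, which carries endostatin, was at 87.4, 109 and 108 CPM in Lyl1 KO and 178, 144 and 158 CPM in wild type (-0.65 ± 0.12, adjusted p = 0.127, edgeR). It went the other way without Scl (0.52, adjusted p = 0.0109), and the interaction was called (adjusted p = 0.00223, edgeR). In Lyl1 KO 1, 2 and 3 the collagens summed to 199 to 357 CPM, and in wild type to 486 to 727 CPM.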
